A study of Mus musculus with 6 samples.

Results

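Ifi27l2a and its relative Ifi27 were described across 6 pools of mouse colonic mucosa. Both are small interferon-inducible genes, and the members were all array probes annotated with either symbol alone, which gave 2 of 17694 genes, on 3 of the 46565 probes that could be used, 2 of them detected. Ifi27l2a was chosen by its TNBS minus ethanol values, which had opposite signs in the 2 genotypes, and Ifi27 was added as its relative. The values behind that choice are therefore given below as a description and without a test.

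Each array carried RNA pooled from the colonic mucosa of 5 mice of the FVB/N6 strain, aged 8 weeks, and each group was 1 pool. Mice labelled as Foxo4 knockouts (Foxo4_KO) and wild-type mice (WT) were left without treatment, were given an enema of 50% ethanol, or received an enema of trinitrobenzenesulfonic acid (TNBS, a hapten, labelled as 250 mg with no reference quantity) in 50% ethanol. Tissue of the enema groups was taken on day 2. How the Foxo4 allele was made, and whether it was deleted in all cells, is not given in the labels. TNBS given in ethanol causes an experimental colitis, for which ethanol serves as the vehicle. With 1 pool per group, a difference between single pools has no replicate error, and precision is limited by the number of arrays.

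The genes belong to the ISG12 family, whose small hydrophobic proteins are induced by interferons. Interferons bind their receptors on the cell surface, and Jak kinases then activate Stat proteins, which with Irf9 switch on a large set of antiviral and antibacterial genes. Human IFI27, the best studied of the family, is a mitochondrial protein and one of the genes most often used to read an interferon response, and mouse Ifi27l2a is strongly induced by type I interferon. In the RefSeq annotation of GRCm38.p6 the spans of Ifi27l2a and Ifi27 overlap, and Ifi27l2b is the next protein-coding gene. The array probes' own sequences were not used here, so whether a probe also binds RNA of a neighbouring family gene was not tested.

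Signals were corrected for background and quantile normalized, and levels below are normalized log2 signals, on which a difference of 1 is 2-fold. A probe was counted as detected where its detection p was under 0.01. Mean array signal was between 225 and 277, and between 11181 and 14363 probes were detected per array. The Foxo4_KO TNBS array stood apart, with correlations of 0.948 to 0.970 to the others over 8936 detected genes, where the other pairs of arrays had 0.973 to 0.986. The single Foxo4 probe was below background in all pools (detection p 0.168 to 0.903), so the arrays did not check the knockout. Xist, which is transcribed from the silenced X of female cells, read 10.36, 5.56 and 7.51 in Foxo4_KO mice without treatment, after ethanol and after TNBS and 9.85, 5.64 and 5.50 in those of WT mice, so the pools were unlike in a way the treatments do not name, and its part in any result below was not tested.

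Ifi27l2a had 2 probes, and 1 of them was detected on all 6 arrays. Its deposited signal before any correction was 1644, 1445 and 659.7 in Foxo4_KO mice without treatment, after ethanol and after TNBS, against 151, 186 and 421 in the matching WT pools. On the normalized log2 scale these levels were 10.71, 10.58 and 8.93 in Foxo4_KO, against 6.83, 7.31 and 8.62 in WT. The untreated and ethanol pools of Foxo4_KO mice were thus the highest, the untreated and ethanol pools of WT mice the lowest, and both TNBS pools lay between them. All 3 Foxo4_KO pools lay above all 3 WT pools, with a gap of 0.30 between the lowest Foxo4_KO and the highest WT pool, which were the TNBS pools. The second probe was below background in all pools, with detection p of 0.256 to 0.702 and levels of 4.50 to 4.69, and so gave only a bound. The probes thus disagree, and all values of Ifi27l2a rest on 1 of them.

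**Figure D1:**
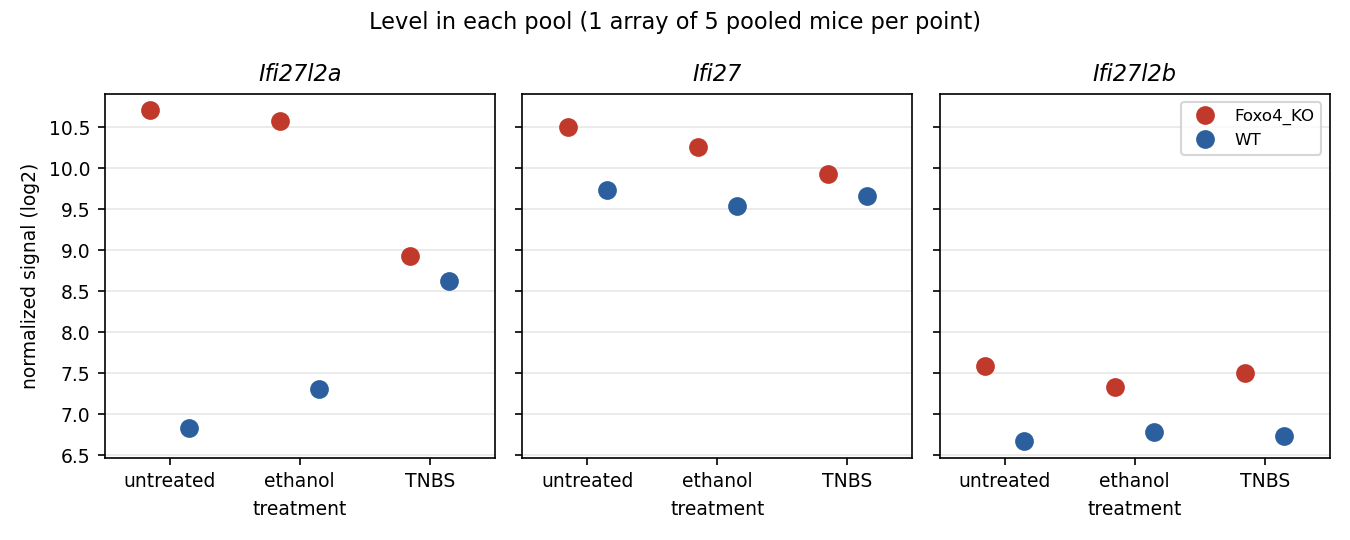
Normalized signal (log2) of Ifi27l2a, Ifi27 and Ifi27l2b in the Foxo4_KO (red) and WT (blue) pools without treatment, after ethanol and after TNBS, with 1 array per point. Ifi27l2a stands at 10.71 in the untreated Foxo4_KO pool and at 6.83 in the untreated WT pool, and the TNBS pools lie 0.30 apart.

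Without treatment Ifi27l2a was 14.8-fold higher in the Foxo4_KO pool than in the WT pool, a log2 difference of 3.88. That was the second highest of 8064 genes detected in either pool, after the defensin Defa31, named here for its rank, and 1.15% of these genes were at least 2-fold higher. After ethanol it was 9.64-fold higher in Foxo4_KO (3.27), again the second highest, of 7987 genes, where 4.14% were at least 2-fold higher. After TNBS the difference was 0.30, or 1.23-fold, the 2051st highest of 8621 genes, of which 3.24% were at least 2-fold higher. The genotype difference of Ifi27l2a was therefore among the largest on the arrays in 2 pairs of pools and ordinary in the third. In these bulk samples, fewer cells of a type and less RNA per cell cannot be told apart.

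The TNBS pools differed from the ethanol pools in opposite directions, as the gene's choice required. TNBS minus ethanol was −1.65 in Foxo4_KO and 1.31 in WT. Opposite signs in the genotypes were common, at 46.6% of 8936 genes, and 21.8% had a negative value in Foxo4_KO and a positive one in WT. Only 8 genes (0.0895%) were at least 2-fold lower in Foxo4_KO and at least 2-fold higher in WT, of which Ifi27l2a was one. Being at least 2-fold lower was found in 1.63% of genes in Foxo4_KO, and being at least 2-fold higher in 1.27% in WT. The difference of the differences, −2.97, was the eighth lowest of all genes, of which 2.54% were at least 2-fold lower.

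The other genes of this group were mostly muscle genes. The 5 lowest were 2310057J18Rik (−6.75), the muscle calcium pump Atp2a1 (−5.09), skeletal actin Acta1 (−5.00), the calcium buffer Pvalb (−4.97) and the troponin Tnnt3 (−3.91). Of these, Acta1 was detected on all 6 arrays and the others on 2 each, in the ethanol-treated Foxo4_KO and the TNBS-treated WT pool. The values of the others, and their place in this group, thus rest on levels below background in the TNBS-treated Foxo4_KO and ethanol-treated WT pools. The pattern of the 5 over the pools was not that of Ifi27l2a. Without treatment Acta1 read 6.74 in Foxo4_KO and 6.59 in WT, where Ifi27l2a differed by 3.88. The other 2, chosen here after their values were seen, were the troponin Tnnc2 and the smooth muscle myosin Myh11. Just outside the 2-fold limit in WT was Tnni2, another troponin chosen after its values were seen, with −1.60 in Foxo4_KO and 0.95 in WT.

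**Figure D2:**
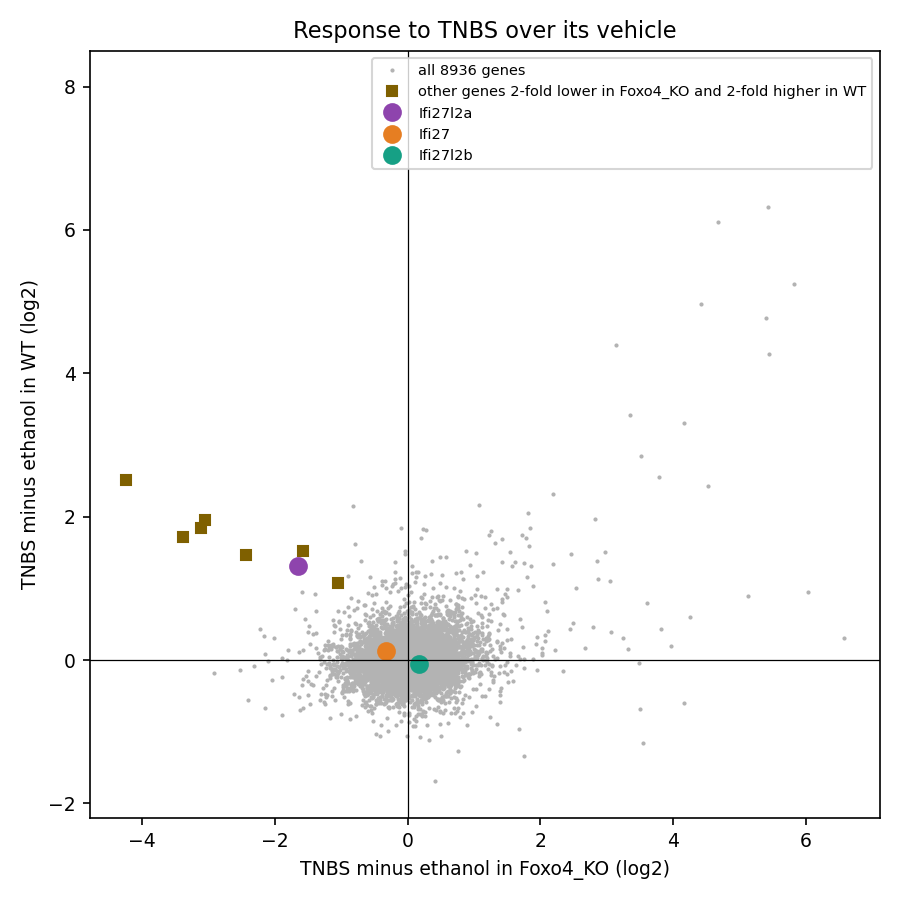
TNBS minus ethanol (log2) in Foxo4_KO on the horizontal axis and in WT on the vertical axis, for 8936 genes (grey). Ifi27l2a (purple) lies at −1.65 and 1.31 in the upper left with 7 other genes (brown squares), while Ifi27 and Ifi27l2b lie near the origin.

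The ethanol and untreated pools lay closer together for Ifi27l2a. Ethanol minus untreated was −0.13 in Foxo4_KO and 0.48 in WT, where 0.732% of genes were at least 2-fold higher. Set against the untreated pools, the TNBS pools differed by −1.78 in Foxo4_KO, the 13th lowest of 8615 genes (1.33% at least 2-fold lower), and by 1.80 in WT, the 49th highest of 8055 (1.91% at least 2-fold higher). These differences share their TNBS pools with the values that chose the gene.

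Ifi27 had 1 probe, detected on all 6 arrays. Its deposited signal was 1402, 1162.5 and 1267 in Foxo4_KO mice without treatment, after ethanol and after TNBS, against 880.3, 727 and 832 in WT. The normalized levels were 10.50, 10.25 and 9.93 in Foxo4_KO, against 9.73, 9.54 and 9.66 in WT. As with Ifi27l2a, all 3 Foxo4_KO pools lay above all WT pools, here with a gap of 0.21 between the TNBS-treated Foxo4_KO and the untreated WT pool. The deposited signal of the Foxo4_KO TNBS pool was above that of the Foxo4_KO ethanol pool, whereas the normalized level was below it.

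The genotype differences of Ifi27 were smaller than those of Ifi27l2a. It was 1.71-fold higher in Foxo4_KO without treatment (0.77, the 174th highest gene), 1.64-fold after ethanol (0.71, the 497th) and 1.21-fold after TNBS (0.27, the 2220th). The TNBS pair was the smallest, as for Ifi27l2a, but where arrays were scaled by their medians in place of quantile normalization the 3 differences were 0.64, 0.72 and 0.67 and this order was lost. TNBS minus ethanol was −0.32 in Foxo4_KO and 0.12 in WT, a difference of −0.44. The Foxo4_KO value turned to 0.11 under that scaling, which moved the median gene of that comparison by 0.31 and left Ifi27 at −0.22 relative to it. Ethanol minus untreated was −0.25 in Foxo4_KO and −0.19 in WT.

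The third family gene on the arrays, Ifi27l2b, was detected in all pools through 1 probe. Its levels were 7.59, 7.33 and 7.50 in Foxo4_KO mice without treatment, after ethanol and after TNBS, against 6.67, 6.78 and 6.73 in WT. Its deposited signal was 224, 199 and 270.2 in these Foxo4_KO pools, against 139, 143 and 145 in WT. The normalized levels spanned 0.26 among the Foxo4_KO pools and 0.11 among the WT pools. The genotype difference was 0.92, 0.55 and 0.77, and TNBS minus ethanol was 0.17 in Foxo4_KO and −0.05 in WT. Under median scaling the genotype difference was 0.81, 0.68 and 1.21, and TNBS minus ethanol was 0.51 in Foxo4_KO and −0.02 in WT. In Ifi27l2b the TNBS pair was thus not the smallest of the 3, and whether this differs from its neighbours was not tested. Ifi27l1 is listed by RefSeq as another name of Ifi27 and had no probe of its own.

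A difference between the genotypes over all 3 treatments was tested with limma, in an additive model of genotype and treatment fitted to all 8936 genes, with the treatments standing in for replicates. Its residual holds any difference in response between the genotypes, including the one that chose Ifi27l2a. Ifi27l2a was higher in Foxo4_KO by 2.48 (log2, SE 0.661), or 5.60-fold, but did not pass (limma adjusted p = 0.295), with a residual SD of 1.35 where the median gene had 0.171. Ifi27 (0.59, SE 0.153, limma adjusted p = 0.289) and Ifi27l2b (0.75, SE 0.137, limma adjusted p = 0.150) did not pass either, with residual SDs of 0.194 and 0.134. All 3 genes were higher in each of the 3 pairs, as were 13.3% of all genes, and had every Foxo4_KO pool above every WT pool, as did 5.93%. At an unadjusted p under 0.05, as in all 3, 6.07% of genes were higher and 4.23% lower. With both TNBS pools left out, Ifi27l2a differed by 3.58 (limma adjusted p = 0.178) and Ifi27 by 0.74 (limma adjusted p = 0.411). Under median scaling the limma estimate of Ifi27l2a was 2.61 and passed (limma adjusted p = 0.00275), a setting under which 125 genes passed in place of 12 and the fit's prior degrees of freedom were 13.4 in place of 3.79.

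Genes that did pass numbered 12 of 8936 (0.134%), all higher in Foxo4_KO, and 5 of them were interferon-stimulated effectors. Ifit2, which blocks viral translation, was the clearest: it read 8.69, 8.82 and 9.17 in Foxo4_KO mice without treatment, after ethanol and after TNBS, against 6.13, 6.23 and 6.67 in WT. Its genotype difference was thus 2.56, 2.59 and 2.50 in turn, nearly the same in every pair, with an estimate of 2.55 (SE 0.122, limma adjusted p = 0.0102). Ifi27l2a had larger differences than Ifit2 in the first 2 pairs and a smaller one after TNBS. With any 1 treatment left out, no gene passed in limma, and at an unadjusted p under 0.05 the counts were then 623 to 950.

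The rest of the interferon pathway was read in order from ligand to target. Of 8 interferon genes, 7 had probes and none was detected in any pool. Of 20 receptor and signalling genes, 17 were measured and none passed. Higher in every pair were 6 of the 17, against 13.3% of all genes. Of the 14 detected in a WT pool, 4 were higher in every pair, against 11.4% of all genes so detected. The 6 included Stat2, the partner of Irf9 in the factor that type I interferon activates (1.16, SE 0.159). Another was Irf7, which amplifies type I interferon production (0.70). The others were Irf9 (0.55), the myeloid factors Irf8 (0.47) and Irf5 (0.41), and the receptor chain Ifnar2. Stat2 and Ifnar2 were detected in Foxo4_KO pools alone, and Ifnar2 was below background in both untreated pools, so it gave no difference there. The other 11, namely Ifngr1, Ifngr2, Ifnlr1, Il10rb, Jak1, Jak2, Tyk2, Irf1, Irf2, Irf3 and Socs1, had estimates between −0.34 and 0.26, the highest being that of Jak1, which was detected on 1 array. The list's median genotype difference was 0.23 without treatment, −0.03 after ethanol and 0.00 after TNBS, beside −0.04, −0.04 and 0.01 for all genes. Irf7 differed by 0.92 and 1.17 in the first 2 pairs and by 0.00 after TNBS. Its TNBS minus ethanol was −1.04 in Foxo4_KO and 0.12 in WT.

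Effector genes downstream of interferon stood higher in Foxo4_KO more widely. Of 40 listed, 28 were measured and 23 were higher in every pair, or 26 in the untreated and ethanol pairs alone, where 21.2% of all genes were. Of the 28, 5 were detected in no WT pool and had passed the filter through Foxo4_KO pools, including 4 of the 23 (Apol9b, Ifit3, Mx2 and Oas3), and Ifit3 and Oas3 were below background in both pools of at least 1 pair. Of the 23 detected in a WT pool, 19 were higher in every pair, against 11.4% of all genes so detected. The 5 that passed were Ifit2, the antiviral enzyme Rsad2 (1.95), the antiviral GTPase Mx2, and the near-identical pair Apol9a (2.27) and Apol9b, whose signals may not be separable. Mx2 and Apol9b were detected in the Foxo4_KO pools alone and so passed the detection filter through them. Without treatment, after ethanol and after TNBS, Mx2 was at least 2.72-fold, 1.41-fold and 1.74-fold higher in Foxo4_KO, and Apol9b at least 4.84-fold, 4.89-fold and 2.45-fold. Oas2, an enzyme activated by double-stranded RNA, was 8.60-fold, 5.24-fold and 3.26-fold higher in Foxo4_KO without treatment, after ethanol and after TNBS. Its estimate was 2.40 (limma adjusted p = 0.0657). The list's median difference was 0.88, 1.11 and 0.59 in these pairs.

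The smaller difference after TNBS was shared by many of these genes, though by less than in Ifi27l2a. Among the effectors 22 of 28 had a smaller genotype difference after TNBS than after ethanol, against 48.2% of all genes, though 7 of the 28 were below background in both WT pools concerned. Under median scaling this was 15 of 28 against 24.5% of all genes. The effector median after TNBS was 0.95 under that scaling, 0.58 above the median gene. The interferon-inducible GTPases, which act against pathogens inside cells, had 5 of 11 measured, all 5 higher in every pair and none past the test. Their median difference was 1.68, 1.18 and 0.78. Under median scaling it was 1.57, 1.22 and 1.24, so the lower median after TNBS than after ethanol was lost. Under that scaling 1 of the 5 had a smaller difference after TNBS than after ethanol, against 24.5% of all genes. Irgm2 was the largest of them (1.45, SE 0.229), followed by Gbp3 (1.36) and Igtp (1.35). Igtp differed by 2.04, 1.23 and 0.78, and its TNBS minus ethanol values were −0.47 in Foxo4_KO and −0.02 in WT.

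**Figure D3:**
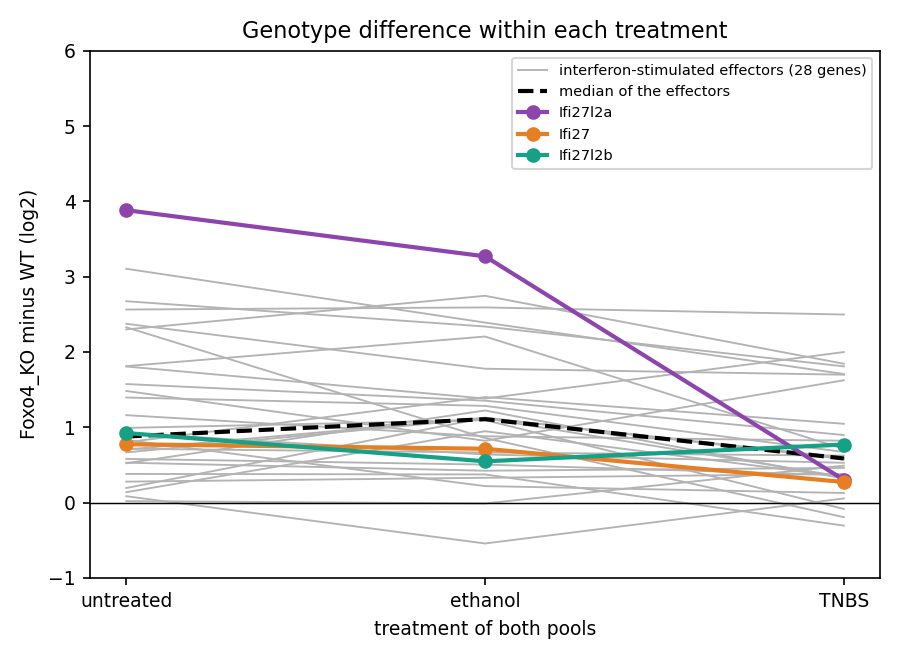
Foxo4_KO minus WT difference (log2) within the untreated, ethanol and TNBS pairs of pools for Ifi27l2a, Ifi27 and Ifi27l2b and, in grey, the 28 measured interferon-stimulated effectors, with their median as a dashed line. Ifi27l2a lies above every effector without treatment (3.88) and after ethanol (3.27), and close to Ifi27 after TNBS (0.30 and 0.27).

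The genes whose levels were most like those of Ifi27l2a were sought among the 1301 genes that were detected on at least 1 array and spanned at least 1 (log2) over the pools. Likeness was Pearson's r over the 6 pools, which share all arrays and the normalization, and it is given as a description. The 10 highest were Sp100, a protein of nuclear bodies (0.967), the leukocyte surface protein Ly86 (0.959), the oligoadenylate synthetase relatives Oasl2 (0.956) and Oasl1 (0.946), the immunoproteasome subunit Psmb9 (0.944), the leukocyte exchange factor Cyth4 (0.941), Oas2 (0.936), the RNA sensor Dhx58 (0.934), the GTPase Irgm1 (0.927) and Stat2 (0.926). Of these, 6 belonged to the interferon lists. Ly86 and Stat2 were detected in the Foxo4_KO pools alone and so entered the search through them. Their r therefore rests in part on WT levels below background. An r of at least 0.9 was reached by 24 of the 1301 genes (1.84%), and by 12 of the 25 interferon list genes among them. The 25 held Stat2, Mx2, Apol9b, Ifit3 and Oas3, which were detected in Foxo4_KO pools alone. Such genes entered through pools where Ifi27l2a was high too, and their WT levels were below background. The 12, Stat2 among them, thus rest in part on such levels, and a count over genes detected in a WT pool was not made. The median r over the 1301 genes was 0.15. Ifi27 had an r of 0.896 but spanned only 0.96, and Ifi27l2b had 0.825.

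Their levels spanned less than those of Ifi27l2a. Sp100 read 7.28, 7.07 and 6.70 in Foxo4_KO mice without treatment, after ethanol and after TNBS, against 6.25, 6.51 and 6.59 in WT, a genotype difference of 2.04-fold, 1.47-fold and 1.08-fold. It ranked the pools in the same order as Ifi27l2a, over a log2 range of 1.03 in place of 3.88. Oasl2 read 7.44, 7.45 and 6.65 in Foxo4_KO, against 5.63, 5.25 and 5.94 in WT. It was below background in the ethanol-treated WT pool, against which it was at least 3.21-fold higher. Stat2 was below background in all WT pools and at least 1.94-fold, 1.77-fold and 1.44-fold higher in Foxo4_KO without treatment, after ethanol and after TNBS.

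The 5 genes least like Ifi27l2a ran opposite to it. The sterol hydroxylase Cyp27a1 had an r of −0.975, the sodium channel subunit Scnn1g −0.950, Gpr137b-ps −0.933, the secreted growth factor Bmp3 −0.931 and the hypoxia-inducible factor subunit Hif3a −0.912. Scnn1g read 6.91, 5.84 and 7.51 in Foxo4_KO mice without treatment, after ethanol and after TNBS, against 9.10, 8.99 and 8.03 in WT. It was thus lowest where Ifi27l2a was high and, as in Ifi27l2a, the TNBS pools lay closest together.

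**Figure D4:**
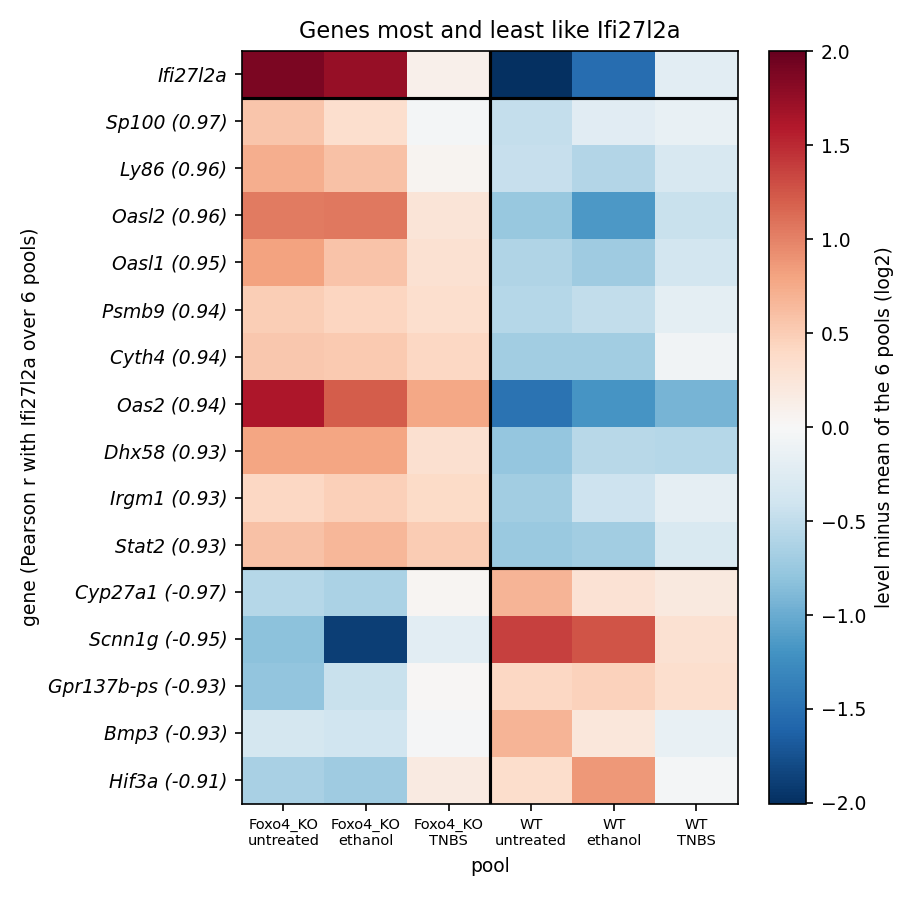
Levels of Ifi27l2a, the 10 genes most like it and the 5 least like it (rows, with Pearson's r over the 6 pools), each as the log2 level minus its mean over the pools, with the Foxo4_KO pools left of the WT pools. The top rows are high (red) in the untreated and ethanol Foxo4_KO pools and low (blue) in the matching WT pools. TNBS pools lie nearer to 0 in most of these rows, and the bottom 5 rows run the other way.

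Markers of other cells moved with genotype and with treatment. Of 12 epithelial markers, which check the tissue label, 10 were detected, each in every pool. Their summed signal (linear, normalized, without the offset) was 26884 to 29859 in Foxo4_KO and 27886 to 32001 in WT. Of the 10, 1 was higher in every pair, near the 13.3% of all genes. Of 9 measured markers of monocytes and macrophages, 2 (Adgre1 and Cx3cr1) were detected in Foxo4_KO alone and so passed the detection filter through it. Of the 7 detected in a WT pool, 6 stood higher in each pair, against 11.4% of all genes so detected. The summed signal of the 9 was 2756 to 3492 in Foxo4_KO and 1464 to 1890 in WT. Laptm5 was the largest of them (1.22) and gave much of the sum, which without it was 1182 to 1755 in Foxo4_KO and 954 to 1184 in WT. Without treatment the differences of C1qb (0.06) and C1qc (0.00) were small. Adgre1 was below background in both untreated and both ethanol pools. All 4 measured markers of T and NK cells read higher in every pair (294 to 536 in Foxo4_KO and 132 to 307 in WT), led by Cd3d (1.14). So did all 6 measured MHC class II genes (2389 to 3878 in Foxo4_KO and 798 to 1562 in WT), led by H2-Ab1 (1.69), against 13.3% of all genes. Nkg7 was detected in Foxo4_KO alone and so passed the detection filter through it. Detected in a WT pool were 3 T and NK markers and all 6 MHC class II genes. All of these were higher in every pair, against 11.4% of all genes so detected. Cd3g, Ciita, H2-DMa and H2-Oa were below background in WT after ethanol and after TNBS. Their place in these counts thus rests in part on such levels. No difference could be bounded for Nkg7, Cd3g, Ciita and H2-Oa after TNBS, nor for Nkg7 after ethanol. None of these markers passed the test of genotype, and their part in the higher Ifi27l2a of the Foxo4_KO pools was not tested.

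Some B and plasma cell markers differed between genotypes and, in Foxo4_KO, between ethanol and TNBS, though none passed the test of genotype. Of 6 measured genes, 3 (Cd79a, Ms4a1 and Pou2af1) were below background in every WT pool, so they gave no TNBS minus ethanol value in WT. Of the 3 detected in a WT pool, 2 (Mzb1 and Cd79b) were higher in every pair, against 11.4% of all genes so detected. The other, Xbp1, differed between genotypes by 0.17, −0.08 and 0.11 without treatment, after ethanol and after TNBS. Its TNBS minus ethanol was 0.24 in Foxo4_KO. Mzb1 of plasma cells read 8.39, 8.70 and 7.54 in Foxo4_KO mice without treatment, after ethanol and after TNBS, against 6.90, 6.42 and 6.60 in WT. Cd79b of the B cell receptor read 8.49, 8.68 and 7.20 in Foxo4_KO, against 7.19, 6.20 and 6.68 in WT. TNBS minus ethanol was −1.17 in Foxo4_KO and 0.18 in WT for Mzb1, and −1.49 in Foxo4_KO and 0.47 in WT for Cd79b. The untreated WT pool of Cd79b was level with the TNBS-treated Foxo4_KO pool. The list's summed signal was 4091, 4241 and 4184 in Foxo4_KO and 3180, 3562 and 3738 in WT, most of it from Xbp1, a factor that epithelial cells also use. Without Xbp1 the sum was 862, 1031 and 383 in Foxo4_KO and 319, 175 and 221 in WT. The part of these markers in the levels of Ifi27l2a was not tested.

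Of 8 measured smooth muscle markers, 2 (Des and Tagln) were detected in no WT pool. The other 6 had negative TNBS minus ethanol in Foxo4_KO and positive in WT, against 21.8% of all genes. Under median scaling 3 of all 8 markers had these signs, as did 875 of 8936 genes. The summed signal of all 8 was 3203, 20689 and 17851 in Foxo4_KO mice without treatment, after ethanol and after TNBS, against 3020, 3343 and 8386 in WT. Actg2, the enteric smooth muscle actin, differed between genotypes by 0.33, 3.11 and 1.17 in these pairs. The untreated pair, in which Ifi27l2a differed by 3.88, had a smooth muscle median of 0.03. The neutrophil sum was 4363 after TNBS in Foxo4_KO and 429 in WT. After TNBS 5 of the 5 neutrophil markers were detected in Foxo4_KO and 4 in WT, but without treatment and after ethanol at most 1 was detected in any pool, so no sum is given there. The 8 measured small intestinal genes summed to 1546, 1427 and 15817 in Foxo4_KO and 753, 1486 and 7926 in WT. Among them, the lysozyme Lyz1 and the defensin Defa24 were below background in WT without treatment and after ethanol. Fabp6, which read 12.18 in Foxo4_KO and 11.78 in WT after TNBS, was brighter there than either. The small intestinal sum was highest after TNBS in each genotype. The part of these markers in the levels of Ifi27l2a and Ifi27 after TNBS was not tested.

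The direction of each Ifi27l2a difference was the same in 5 ways of processing the arrays. Foxo4_KO minus WT was 3.46 to 3.88 without treatment, 2.97 to 3.31 after ethanol and 0.27 to 0.75 after TNBS. TNBS minus ethanol was −1.65 to −1.20 in Foxo4_KO and 1.12 to 1.36 in WT. Ifi27 kept its direction in the 3 genotype differences and in WT, and not in TNBS minus ethanol of Foxo4_KO, which was −0.32 to 0.11.

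**Figure D5:**
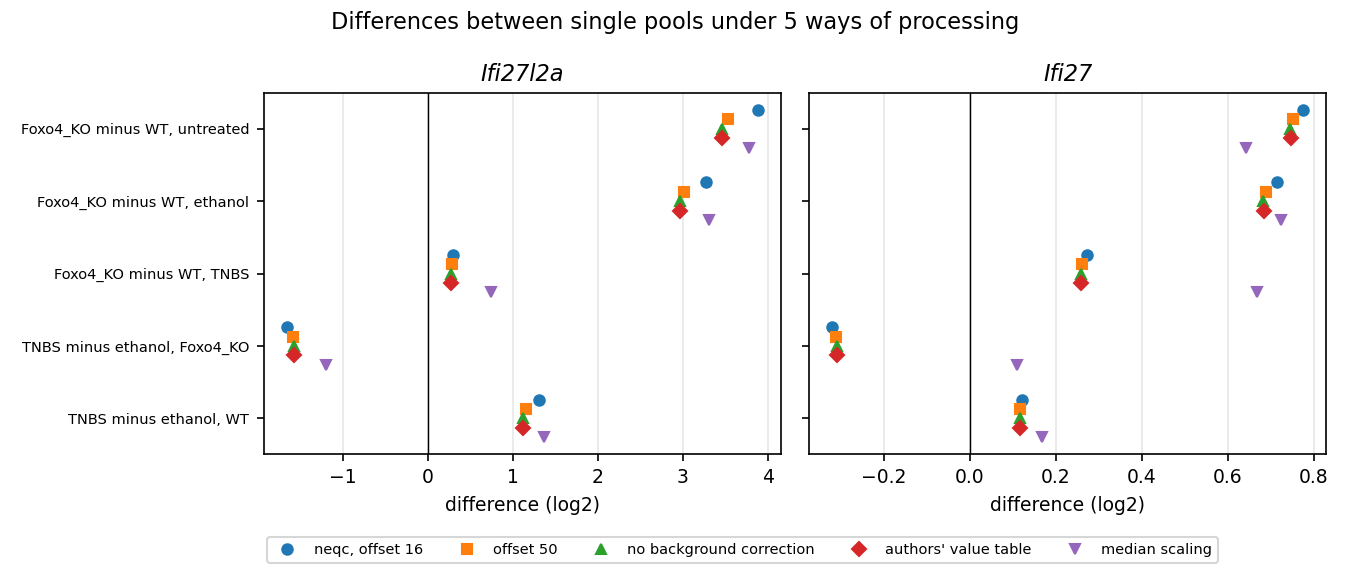
Differences between single pools (log2) for Ifi27l2a (left) and Ifi27 (right) under 5 ways of processing, shown by symbol. All symbols lie on the same side of 0 except for TNBS minus ethanol of Ifi27 in Foxo4_KO, where median scaling gives 0.11.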

How the data were processed

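Colonic mucosa of 6 pools of 5 mice was measured on Illumina mouse bead arrays, from biotin-labelled RNA per the labels' protocols. Neither labels nor headers name the scanner. The deposited unnormalized table holds the mean bead signal per probe as intensity, without background subtraction. Beside it the deposited table holds a detection score, a fraction from 0 to 1 named a p-value in the header. It is high for bright probes, and was read as 1 minus p. The authors' value table holds intensity quantile normalized on the linear scale, as its common distribution shows, and names the probes. Its scale is therefore linear, it is not centred, and it holds no ratio.

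Both tables were joined by signal profile within 0.05 (log2), for 46565 of 46632 probes (99.9%). Entrez numbers matched for 7951 of 8026 targets that carry one, against 3 after shuffling. Of joined probes, 29937 had 1 symbol, 16618 none and 10 several.

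Values were processed with neqc in limma 3.58.1 (R 4.3.3; offset 16), keeping per gene the brightest probe among those with detection p under 0.01 on at least 1 array (8936 genes). Tables and figures used Python 3.11.15. The additive limma model had 2 residual and 3.79 prior degrees of freedom, with Benjamini-Hochberg adjustment over all genes and a two-sided threshold of 0.05. On simulated data with 200 of 8936 genes changed, this fit recovered 60% of changes of 1 and 99.1% of changes of 3 (log2), with 4.82% false calls. These rates are for that setting alone. In the arrays 12 genes passed, and Ifi27l2a, at 2.48 with a residual SD of 1.35, did not. Recovery with fewer changed genes, or where the genotype difference varies between treatments, was not tested. The p-values measure only the spread between these arrays. Where a gene was below background in 1 pool of a pair, the fold is a bound (at least N-fold), taken against the higher of its own level and the dimmest detected probe of that array.

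Named genes were the members and relatives, the 10 most and 5 least like Ifi27l2a, the 5 lowest in response difference among genes of opposite sign, up to 3 per list with the largest genotype estimate, and all measured interferon signalling genes. Members and the 13 lists were chosen with earlier results of these data known. Alternatives were no background correction, median scaling, the authors' values, an offset of 50, another variance prior, other filters and leaving out each treatment.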

Additional observations from a re-analysis of the deposited data

Results flagged for a closer look

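The TNBS minus ethanol difference of Ifi27l2a went opposite ways in the genotypes, at −1.65 in Foxo4_KO and 1.31 in WT, and the difference of −2.97 was not tested, since each group is 1 pool and this value chose the gene. Ethanol minus untreated of Ifi27l2a also differed in sign, at −0.13 in Foxo4_KO and 0.48 in WT, a difference of −0.61 that was not tested. For Ifi27, TNBS minus ethanol was −0.32 in Foxo4_KO and 0.12 in WT, a difference of −0.44 that was not tested, and the Foxo4_KO value was positive (0.11) under median scaling. Opposite signs of TNBS minus ethanol were found in 46.6% of all genes.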

How the results depend on the processing

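No paired analysis was possible because no 2 groups share replicate numbers, each being 1 pool; the additive model itself compares the genotypes within treatments. The cause of the changes below was not tested. For Ifi27l2a, Foxo4_KO minus WT without treatment was 3.88, and 3.46 without background correction or with the authors' values (3.46) and 3.53 with an offset of 50; after ethanol 3.27, and 2.97, 2.97 and 3.02 under these settings; after TNBS 0.30, and 0.75 under median scaling. TNBS minus ethanol in Foxo4_KO was −1.65, and −1.20 under median scaling; in WT 1.31, and 1.12 without background correction and 1.12 with the authors' values. The difference of these was −2.97, and −2.69, −2.56, −2.70 and −2.74 without background correction, under median scaling, with the authors' values and with an offset of 50. For Ifi27, median scaling gave 0.67 in place of 0.27 for Foxo4_KO minus WT after TNBS, turned TNBS minus ethanol in Foxo4_KO to 0.11 in place of −0.32 and gave −0.056 in place of −0.44 for the difference between genotypes.

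Over the 3 treatments, the limma estimate of Ifi27l2a was 2.61 and passed under median scaling (limma adjusted p = 0.00275); over its other alternatives the adjusted p was 0.178 to 0.690. Leaving out each treatment gave 1.79 to 3.58 for Ifi27l2a and 0.49 to 0.74 for Ifi27, neither past the threshold. Genes called numbered 12, and 125 under median scaling, 20 with an offset of 50, 31 with a trended and robust prior, and 0 with each treatment left out in turn (623 to 950 at an unadjusted p under 0.05).

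Counts of genes at least 2-fold apart, given as the count and then the counts without background correction, with the authors' values, with an offset of 50 and over genes detected on all 6 arrays, were as follows. Foxo4_KO minus WT had 141 and then 64, 66, 69 and 69 without treatment, 383 and then 184, 184, 190 and 178 after ethanol, and 385 and then 147, 147, 158 and 177 after TNBS. TNBS minus ethanol had 363 and then 187, 187, 196 and 198 in Foxo4_KO, and 105 and then 49, 49, 51 and 49 in WT. Ethanol minus untreated had 157 and then 70, 70, 75 and 79 in Foxo4_KO, and 114 and then 42, 43, 48 and 47 in WT. Median scaling gave 810 for Foxo4_KO minus WT after TNBS and 584 for TNBS minus ethanol in Foxo4_KO.

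The alternative of each other probe gave no value, since the second Ifi27l2a probe was below background in all pools and Ifi27 had 1 probe. Leaving out the TNBS pools from the count of effectors higher in every pair, chosen after seeing the data, gave 26 in place of 23. Signal over background limits statements on genes below it, among them Foxo4 and the interferons.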

Other observations

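Among the 12 genes that passed the test of genotype, 7 were outside the interferon effector list, and all are named here after their values were seen. Nenf, a secreted factor, was higher in Foxo4_KO by 2.26, 2.59 and 1.69 (log2) in the untreated, ethanol and TNBS pairs, and Dlk1, a membrane protein of progenitor cells, by 1.41, 1.55 and 1.40. Both were detected in all pools. Gbp2b, an interferon-inducible GTPase, was 5.30-fold higher without treatment, at least 4.21-fold after ethanol and 4.21-fold after TNBS. The chemokine Cxcl9 was at least 2.96-fold, 3.55-fold and at least 2.55-fold higher in these pairs, and the chemokine Ccl5 3.17-fold, at least 2.00-fold and at least 2.22-fold. Gpa33, a surface antigen of intestinal epithelium, and Pdrg1 were detected in the Foxo4_KO pools alone and passed the detection filter through them. Gpa33 was at least 6.31-fold, 3.56-fold and 3.08-fold higher, and Pdrg1 at least 1.52-fold, 2.49-fold and 1.44-fold.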
